A study of Mus musculus with 20 samples.

Results

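The comparison described here set livers of mice given 4.5 h of resuscitation after hemorrhagic shock and severe trauma against livers of mice given 1 h of resuscitation after the same injury. It comprised 8 of the 20 arrays of the study, 4 at 4.5 h and 4 at 1 h, taken by their sample titles. The mice of both groups were male C57BL/6, 8 to 12 weeks old, anaesthetized, and carried through 1.5 h of shock with severe trauma, so both groups shared the injury and differed in the length of resuscitation. The other arrays came from the end of shock with no resuscitation (n = 4), minor trauma (n = 3) and non-manipulated control mice (n = 5), and they entered the fit through the shared estimate of the spread. Whole liver RNA was hybridized to Affymetrix Mouse430_2 arrays, on which each gene is read by 1 or more probe sets. The labels number the arrays of a group but do not say that each came from a separate animal, so the p-values measure the spread between these arrays. Hours since injury, length of anaesthesia and time of day were not given separately from the group, and they cannot be told apart from the length of resuscitation.

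In hemorrhagic shock the liver loses blood flow and oxygen, and resuscitation restores both. The injured liver is known to answer in waves: immediate early transcription factors such as Fos, Egr1 and Atf3 come first, inflammatory cytokines and chemokines follow, and secreted acute phase proteins and interferon-induced genes come later. Hepatocytes at the same time adjust glucose output, lipid synthesis, bile acid synthesis and drug metabolism, which are their main housekeeping tasks.

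Levels are log2(signal + 6) after quantile normalization over the 20 arrays, called log2 signal here, and each difference is 4.5 h minus 1 h on that scale with its standard error (SE) from limma. On this scale the median of an array was 4.60. In a principal component analysis of the 8 arrays, component 1 carried 56.8% of the variance, with scores of -42.7 to -33.5 at 4.5 h and 33.8 to 45.0 at 1 h. RNA integrity was read from 3′ to 5′ log2 ratios, and the Gapdh ratio averaged -0.31 ± 0.076 at 4.5 h and -0.37 ± 0.12 at 1 h (SD, n = 4 each, two-sided exact permutation p = 0.514, Benjamini-Hochberg adjusted 0.514). The beta-actin ratio averaged 0.77 ± 0.045 at 4.5 h and 0.90 ± 0.099 at 1 h (two-sided exact permutation p = 0.0857, adjusted 0.171). The spike-in dap, a poly-A control, was present on 4.5 h arrays 1 and 2 and on 1 h arrays 2 and 3. It was near absent on the others. Whether the 4.5 h minus 1 h difference depended on this set was tested by limma (0 called, 571 at an unadjusted p under 0.05). With 2 arrays per group in each set, that test had little power and does not show that no difference depended on it. All 12 of 12 hepatocyte markers on the array were tested, and their summed signal after normalization was 81558 to 83199 at 4.5 h and 79659 to 82649 at 1 h. Quantile normalization gives every array the same set of values, which limits how far sums of bright genes can differ. These sums therefore do not test the hepatocyte content. The lists and the members below were chosen with earlier results of these data known.

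The liver at 4.5 h differed from the liver at 1 h in 4245 of 12822 genes tested (33.1%), called at a limma adjusted p of at most 0.05. Of these, 1910 were higher at 4.5 h (14.9% of genes tested) and 2335 were lower (18.2%). A change of at least 2-fold was reached by 618 called genes in the higher direction (4.82%) and by 688 in the lower direction (5.37%). At 4-fold or more the balance turned, with 131 called genes higher and 65 lower, counted under this scaling only. The 2-fold counts depended on the scaling. They were 460 higher and 877 lower with the signals as deposited, 490 and 809 after median centring, and 655 and 634 when scaled to the 2% trimmed mean. The arrays of the groups did not overlap for 4437 genes (34.6%). The largest rises and falls named below were taken among the called genes of these, so their lack of overlap was set by that choice. The median log2 difference over all genes tested was -0.04. Genes called higher were 45% of calls here, 33.1% with the signals as deposited and 33.3% after median centring. Array medians of the deposited signals differed, and under these settings the median of all genes shifted to -0.16 and -0.12. With the deposited signals 1729 genes were called (573 higher, 1156 lower), so list counts under that setting are given below wherever the higher or the lower count differs by over 1.5 times. With the spike-in set as a block 4208 genes were called, and within the spiked and the unspiked set, with 2 arrays against 2, 1445 and 2265.

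**Figure D1:**
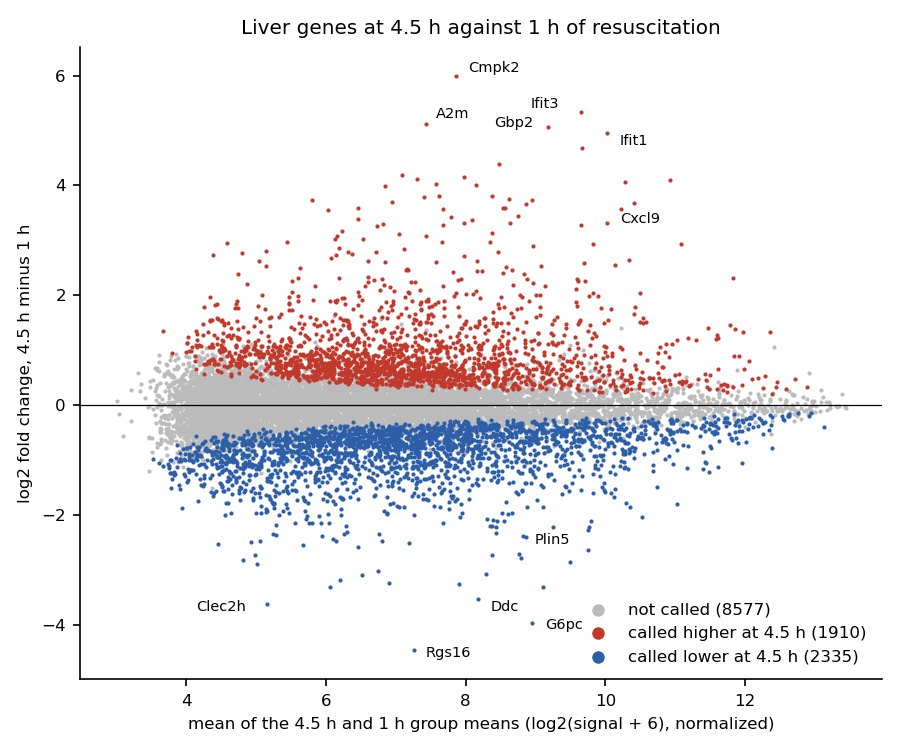
Each point is 1 of the 12822 genes tested: the horizontal axis is the mean of the 4.5 h and 1 h group means (log2 signal) and the vertical axis is the log2 difference, 4.5 h minus 1 h. Red points were called higher at 4.5 h (1910), blue points lower (2335) and grey points were not called, and the named points show that interferon-induced genes lead the rises and that Rgs16, G6pc, Clec2h and Ddc are the lowest points.

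Most of the largest rises were in interferon-induced genes. Cmpk2, a mitochondrial nucleotide kinase induced by interferon, read 10.17, 10.69, 11.04 and 11.51 on the 4.5 h arrays, against 5.21, 4.40, 5.04 and 4.79 on the 1 h arrays. Its log2 difference was 6.0 ± 0.28 (adjusted p = 4.06e-12), which is 63.9-fold. No array of either group came near the other, and every 1 h array lay at or below 5.21, close to the array median. Ifit3, whose protein works in the interferon-induced defence against foreign RNA, read 12.01, 12.43, 12.42 and 12.43 on the 4.5 h arrays, against 7.28, 6.60, 7.34 and 6.71 on the 1 h arrays, 40.6-fold higher at 4.5 h (log2 difference 5.34 ± 0.16, adjusted p = 1.84e-15). Gbp2, a guanylate-binding GTPase that acts against intracellular microbes, read 11.36, 12.01, 11.73 and 11.77 on the 4.5 h arrays, against 6.22, 7.13, 7.01 and 6.25 on the 1 h arrays (33.5-fold higher, adjusted p = 1.14e-11). Ifit1 read 12.43, 12.49, 12.58 and 12.53 on the 4.5 h arrays, against 7.67, 7.10, 8.51 and 6.92 on the 1 h arrays (31.1-fold higher, adjusted p = 3.15e-10). These 3 genes lay between 11.36 and 12.58 on the 4.5 h arrays and between 6.22 and 8.51 on the 1 h arrays. In control livers they averaged 7.17 ± 0.21 for Ifit3, 5.79 ± 0.59 for Gbp2 and 6.99 ± 0.52 for Ifit1 (SD, n = 5), within or below the range at 1 h.

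Type I interferon antiviral effectors rose as a group. Of 33 measured members 31 were called higher and 0 lower, against 14.9% and 18.2% of all genes tested, and 29 rose by at least 2-fold. The median log2 difference of the list was 3.27, against -0.04 for all genes tested. The 4.5 h and 1 h arrays did not overlap for any of the 33, beside 34.6% of all genes tested without overlap. Usp18, which removes the ubiquitin-like protein ISG15 and restrains interferon receptor signalling, read 11.73, 12.07, 12.02 and 12.19 on the 4.5 h arrays, against 6.98, 6.57, 7.95 and 7.79 on the 1 h arrays (25.6-fold higher). Mx1, a dynamin-like antiviral GTPase, read 8.38, 9.36, 9.48 and 9.48 on the 4.5 h arrays, against 5.21, 4.76, 5.26 and 4.73 on the 1 h arrays (18.2-fold higher), and 4.5 h array 1 was the lowest of its group. Rsad2, the antiviral radical SAM enzyme viperin, stood at 12.78 to 13.22 on the 4.5 h arrays, against 8.32 to 9.33 on the 1 h arrays (17.2-fold higher). The rise was 20.9-fold for Ifit2, 17.8-fold for Herc6, the mouse ligase for ISG15, 17.3-fold for Oasl2 of the oligoadenylate synthetase-like family, 16.0-fold for Trim30d and 15.8-fold for the helicase gene Ddx60. The Ifit, Oas, Gbp and Trim30 genes have near-identical relatives, and signal shared between their probe sets was not resolved here.

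Sensors, transcription factors and effectors of the pathway did not all move alike. Irf7, the transcription factor that amplifies type I interferon, read 9.84, 9.90, 9.74 and 9.83 on the 4.5 h arrays, against 7.19, 7.33, 7.18 and 7.56 on the 1 h arrays, a log2 difference of 2.52 ± 0.15 (adjusted p = 4.65e-11). Stat2 and Irf9, transcription factors that act at interferon-stimulated response elements, rose by 1.84 ± 0.23 and 1.40 ± 0.14. Irf1, a transcription factor induced early by interferon gamma and NF-kB, went the other way and read 8.42, 8.68, 8.83 and 8.34 on the 4.5 h arrays, against 9.91, 10.16, 10.53 and 10.14 on the 1 h arrays. Its log2 difference was -1.62 ± 0.18 (adjusted p = 8.14e-07), and its groups did not overlap, with control livers at 8.08 ± 0.23 (SD, n = 5). Of 20 interferon receptors and signal transducers, 6 were called higher and 2 lower (Irf1 and Irf3), with a list median of 0.28. With the signals as deposited 3 were called higher and 1 lower. All 10 measured guanylate-binding proteins and immunity-related GTPases, which mark and attack vacuoles that hold microbes, were called higher by at least 2-fold, with a list median of 3.34. Igtp rose 16.8-fold, Gbp6 13.3-fold and Ifi47 12.9-fold.

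Promoters of 5 of these genes are shown because they carry the interferon-stimulated response element (ISRE), the site at which STAT2 and IRF9 act. They were taken from RefSeq on GRCm38.p6, from 250 bases before to 50 after the start, 5′ to 3′ on the gene's strand. Capitals mark the motif, searched as GAAA, any 2 bases and GAAA on both strands, where it may overlap other motifs. Of 21 named interferon genes 17 had a promoter in the table and 7 of these held the motif, and the 5 with the largest rises are printed. The windows are chr19:34583279-34583578 on the plus strand for Ifit3, chr3:142620413-142620712 on the plus strand for Gbp2 and chr19:34640639-34640938 on the plus strand for Ifit1. Those of Rsad2 and Igtp are chr12:26456403-26456702 on the minus strand and chr11:58199306-58199605 on the plus strand.
Ifit3: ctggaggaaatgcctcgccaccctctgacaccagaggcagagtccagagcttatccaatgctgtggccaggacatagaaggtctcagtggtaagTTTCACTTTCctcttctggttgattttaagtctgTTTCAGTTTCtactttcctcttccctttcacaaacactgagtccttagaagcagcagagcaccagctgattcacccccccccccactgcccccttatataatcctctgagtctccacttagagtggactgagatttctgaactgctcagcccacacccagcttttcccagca
Gbp2: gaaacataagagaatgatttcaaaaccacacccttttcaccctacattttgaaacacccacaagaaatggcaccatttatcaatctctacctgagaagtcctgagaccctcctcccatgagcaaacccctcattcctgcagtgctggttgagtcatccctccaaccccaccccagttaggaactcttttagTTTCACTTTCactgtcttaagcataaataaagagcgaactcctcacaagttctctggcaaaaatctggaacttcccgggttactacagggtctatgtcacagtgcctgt
Ifit1: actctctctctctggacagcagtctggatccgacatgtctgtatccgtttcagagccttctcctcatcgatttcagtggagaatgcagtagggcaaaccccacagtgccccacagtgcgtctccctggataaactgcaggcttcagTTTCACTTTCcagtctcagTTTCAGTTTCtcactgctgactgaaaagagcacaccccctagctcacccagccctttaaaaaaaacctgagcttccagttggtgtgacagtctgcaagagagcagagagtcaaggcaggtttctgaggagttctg
Rsad2: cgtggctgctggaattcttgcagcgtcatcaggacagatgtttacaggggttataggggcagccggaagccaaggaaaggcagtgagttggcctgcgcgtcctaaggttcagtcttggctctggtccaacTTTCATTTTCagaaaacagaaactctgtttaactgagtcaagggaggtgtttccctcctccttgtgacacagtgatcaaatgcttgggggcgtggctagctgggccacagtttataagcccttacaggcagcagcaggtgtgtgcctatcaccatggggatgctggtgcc
Igtp: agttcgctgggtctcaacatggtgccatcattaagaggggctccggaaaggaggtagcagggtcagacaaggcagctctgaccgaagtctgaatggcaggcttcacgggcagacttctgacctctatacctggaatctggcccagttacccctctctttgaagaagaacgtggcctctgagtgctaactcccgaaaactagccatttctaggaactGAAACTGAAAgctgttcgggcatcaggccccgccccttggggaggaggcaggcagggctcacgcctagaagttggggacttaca
Counted from the start site, the motif began at positions -156 and -122 in Ifit3, -59 in Gbp2, -104 and -85 in Ifit1, -120 in Rsad2 and -34 in Igtp. Among all 27025 RefSeq promoters 3.99% held it, and over the genes tested 3.71%. It was in 12.1% of promoters of genes called higher by at least 2-fold (61 of 503) and in 2.20% of those called lower by at least 2-fold (12 of 545). Among members called higher in the lists of antiviral effectors, interferon receptors and transducers, GTPases, and class I presentation, 57 genes of which 42 had a promoter in the table, it was in 45.2% (19 of 42). The gamma-activated site, searched as TTCNNNGAA, was in 23.8% of those 42 (10 promoters) and in 8.28% of promoters of the genes tested, but in 8.35% of those called higher by at least 2-fold. The AP-1 letters TGANTCA were in 8 of the 42 and in 6.81% of promoters of the genes tested, the E-box CACGTG in 1 of the 42 and 11.6%, and the cyclic AMP element TGACGTCA in 0 of the 42 and 3.27%, all searched on both strands. These are counts of letters in a window and do not show that a factor was bound.

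**Figure D2:**
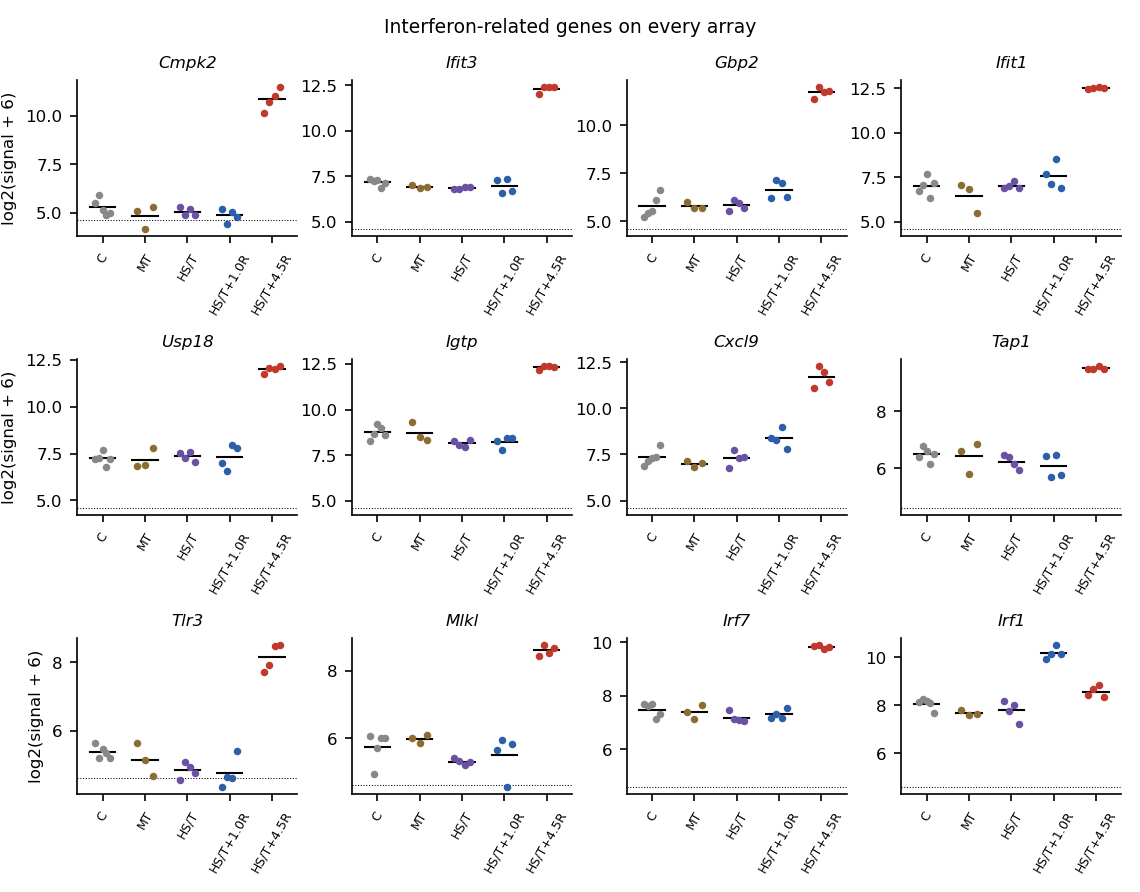
Log2 signal of 12 interferon-related genes on each of the 20 arrays, in the order control (C), minor trauma (MT), shock with severe trauma (HS/T), 1 h (HS/T+1.0R) and 4.5 h (HS/T+4.5R) of resuscitation; points are arrays, bars are group means and the dotted line is the array median. In 11 panels the 4.5 h arrays stand above all other arrays, and in the Irf1 panel the 1 h arrays do.

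Antigen presentation split by class. Among 16 genes of the immunoproteasome and MHC class I pathway, 10 were called higher and 0 lower, with a list median of 0.86. Tap1, a chain of the transporter that loads peptides for class I, read 9.48, 9.46, 9.60 and 9.47 on the 4.5 h arrays, against 6.43, 5.70, 6.45 and 5.75 on the 1 h arrays, 10.7-fold higher (adjusted p = 1.05e-10). The immunoproteasome subunits Psmb9 and Psmb8 rose by 2.46 ± 0.17 and 2.0 ± 0.16, and Tapbpl, a peptide editor of class I, by 2.05 ± 0.16. Of 6 MHC class II presentation genes, 5 were called lower and 0 higher, with a list median of -1.07. Cd74, the invariant chain, read 7.87, 8.23, 8.41 and 7.64 on the 4.5 h arrays, against 9.27, 9.0, 8.92 and 9.39 on the 1 h arrays (log2 difference -1.11 ± 0.20, adjusted p = 0.000202). H2-Eb1 and H2-Aa, chains of the class II molecules, fell, with log2 differences of -1.10 ± 0.20 and -1.04 ± 0.18. Summed markers of Kupffer cells, the resident macrophages that can present on class II, were 2884 to 3059 signal units at 4.5 h and 4539 to 5281 at 1 h, and their part in the class II result was not tested. In whole liver, fewer cells of a type and less RNA per cell cannot be told apart.

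Chemokines and cytokines moved in both directions. Cxcl9, a chemokine for activated T cells, read 11.10, 12.31, 11.95 and 11.40 on the 4.5 h arrays, against 8.42, 8.26, 9.01 and 7.79 on the 1 h arrays, 9.99-fold higher (adjusted p = 1.15e-08). Cxcl2, a neutrophil chemoattractant, read 8.28, 9.29, 8.92 and 7.97 on the 4.5 h arrays, against 10.64, 11.15, 11.14 and 10.66 on the 1 h arrays, a log2 difference of -2.28 ± 0.45 (adjusted p = 0.000481). Both sets of arrays stood apart without overlap, and both Cxcl2 groups lay above the control mean of 3.98 ± 0.55 (SD, n = 5). Cxcl10, the other well known interferon-induced chemokine, was not called (log2 difference 1.0 ± 0.39, adjusted p = 0.0578). Ccl5, made by T cells and macrophages, rose by 2.18 ± 0.33. Il6, the main inducer of acute phase genes, read 5.39, 6.37, 6.33 and 6.27 on the 4.5 h arrays, against 8.58, 8.17, 6.91 and 8.09 on the 1 h arrays (log2 difference -1.84 ± 0.47, adjusted p = 0.00439), and the anti-inflammatory Il10 fell to 5.45 to 5.97 at 4.5 h, against 6.40 to 7.58 at 1 h. Of 14 CXC chemokines and receptors 3 were called higher and 3 lower (list median -0.11), and of 16 CC chemokines and receptors 3 and 5 (list median -0.18; 1 and 5 as deposited). Summed monocyte markers were 1769 to 2372 signal units at 4.5 h and 770 to 938 at 1 h, and their part in these results was not tested.

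NF-kB genes and their products were called lower more often than higher. Among 29 subunits, inhibitors and targets, 12 were called lower and 6 higher, with a list median of -0.53. Sele, the endothelial adhesion molecule E-selectin, read 4.53, 5.13, 4.67 and 5.09 on the 4.5 h arrays, against 7.01, 7.28, 7.40 and 6.34 on the 1 h arrays (log2 difference -2.15 ± 0.31, adjusted p = 1.93e-05). The subunit gene Rel fell by 1.72 ± 0.30 on the log2 scale, with 1 of 4 arrays at 4.5 h above the array median and a fall of 1.40 with the low arrays set to that median, and Icam1, a ligand for leukocyte integrins, fell by 1.02 ± 0.30. Sinusoidal endothelial markers, described last, were lower as well, and their part in the Sele result was not tested. Selp, the P-selectin of platelets and endothelium, went the other way and read 8.63, 8.65, 9.18 and 8.64 on the 4.5 h arrays, against 7.18, 7.06, 8.25 and 6.47 on the 1 h arrays. Leukocyte adhesion molecules gave 3 higher and 4 lower of 14 (list median 0.11), and 1 higher and 2 lower as deposited (median -0.01). Of 17 genes of Toll-like receptor sensing 11 were called higher and 2 lower, with a list median of 0.95: Tlr3, the receptor for double-stranded RNA, read 7.70, 7.92, 8.47 and 8.51 on the 4.5 h arrays, against 4.35, 4.65, 4.62 and 5.41 on the 1 h arrays (10.5-fold higher), and Irak3, a brake on this pathway, rose 7.23-fold. Tlr2, which senses bacterial lipopeptides, rose 3.91-fold, while Irak2, a signalling kinase of the same pathway, fell by 1.66 ± 0.17 on the log2 scale. In the interleukin-1 and inflammasome list 7 of 12 were called higher and 1 lower, with a median of 0.83, and 5 and 0 as deposited. The interleukin-1 cytokine genes Il1a and Il1b were counted in the NF-kB list instead, and both were called lower (Il1b log2 difference -1.58). Il1rn, the antagonist of interleukin-1, read 9.38, 9.10, 9.52 and 9.40 on the 4.5 h arrays, against 7.02, 8.10, 8.09 and 8.20 on the 1 h arrays, and Il33, an alarmin, rose by 1.57 ± 0.27. Il1r1, the signalling receptor for interleukin-1, rose by 1.50 ± 0.45 and was not called without 1 h array 1 (highest adjusted p over the arrays left out 0.065).

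Positive acute phase proteins, secreted by hepatocytes after injury, were called higher in 13 of 27 measured members and lower in 0, with a list median of 0.33. With the signals as deposited 7 were called higher. A2m, the broad protease inhibitor alpha-2-macroglobulin, read 10.63, 10.35, 10.57 and 8.40 on the 4.5 h arrays, against 4.65, 4.43, 5.22 and 5.17 on the 1 h arrays, 34.7-fold higher (adjusted p = 3.05e-09). Its 4.5 h array 4 lay about 2 log2 units under the others and still above all 1 h arrays. Saa3, a serum amyloid A protein, read 12.64, 12.67, 12.67 and 12.25 on the 4.5 h arrays, against 8.29, 10.55, 10.57 and 9.06 on the 1 h arrays (7.67-fold higher), and the lipocalin-family carrier Orm2 rose 5.86-fold. Lcn2, which binds bacterial iron carriers, read 12.85 to 13.04 on the 4.5 h arrays, against 9.35 to 11.23 on the 1 h arrays (log2 difference 2.31 ± 0.83, adjusted p = 0.0367). It was not called when any of 7 arrays was left out in turn (highest adjusted p 0.125), although its groups did not overlap. The receptor subunit Osmr, which hears oncostatin M, rose by 1.77 ± 0.22 in the IL-6 family list, where 4 of 19 were called higher and 2 lower (list median 0.18), 31.6% beside 33.1% of all genes tested. As deposited that list gave 1 higher and 2 lower, with a median of 0.02. Stat3, the factor that carries this signal, rose by 1.01 ± 0.20 on its brightest probe set, and 1 other probe set of it was called in the opposite direction. Its call was lost with the signals as deposited (0.82, adjusted p = 0.0635) and with the mean of all kept probe sets (0.33, adjusted p = 0.12). Negative acute phase and carrier proteins gave 1 call in 12 members, Igfals, which was lower (list median -0.05). Of 23 coagulation and fibrinolysis genes 10 were called lower and 0 higher (list median -0.16), among them F7 and Serpind1 (log2 differences -0.66 ± 0.11 and -0.68 ± 0.11). As deposited the coagulation count was 3 lower. Complement gave 2 higher and 6 lower of 24 (list median -0.15; 0 and 4 as deposited), and its 33.3% called was near the 33.1% of all genes tested. In that list the C1q chains C1qa, C1qb and C1qc, made mainly by macrophages, fell, with log2 differences of -0.93 ± 0.20, -0.85 ± 0.16 and -1.05 ± 0.16, beside the lower Kupffer marker sums given above. The part of those cells in the C1q result was not tested.

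Many immediate early genes were lower at 4.5 h than at 1 h. Of 14 AP-1 factors 9 were called lower and 0 higher, with a list median of -0.93. Atf3, a stress-induced repressor, read 5.98, 5.96, 6.25 and 6.93 on the 4.5 h arrays, against 9.87, 9.22, 9.54 and 9.53 on the 1 h arrays (log2 difference -3.26 ± 0.26, adjusted p = 4.83e-09), with control livers at 4.45 ± 0.40 (SD, n = 5). Fos, the classic serum-response gene, read 6.86, 7.0, 7.43 and 7.80 on the 4.5 h arrays, against 9.86, 8.97, 9.49 and 10.11 on the 1 h arrays (log2 difference -2.33 ± 0.27). For both genes all 4.5 h arrays lay below all 1 h arrays and above the control mean. Jun had a 1 h array at 8.78 within the 4.5 h range of 8.72 to 8.86, and its call (log2 difference -1.41 ± 0.43, adjusted p = 0.0147) was lost without 1 h array 1 or without 1 h array 4 (highest adjusted p 0.0633) and with the mean of all kept probe sets (-0.95, adjusted p = 0.0526). Among 27 Egr, Nr4a, Ier, Klf and related early genes 15 were called lower and 2 higher (list median -0.62; 12 and 1 as deposited): Egr1, Ier2 and Nr4a1 fell, with log2 differences of -1.85 ± 0.45, -1.85 ± 0.26 and -1.86 ± 0.22. Ccn2, a matricellular protein that responds to TGF-beta and YAP, was one of the 2 higher members and read 8.84, 8.87, 8.91 and 8.89 on the 4.5 h arrays, against 6.33, 5.93, 6.41 and 6.44 on the 1 h arrays (6.06-fold higher). Of 13 dual-specificity phosphatases and MAP kinase feedback genes 7 were called lower and 1 higher (list median -0.65; 5 and 0 as deposited), with Dusp6, the ERK phosphatase, at 7.26, 7.07, 7.66 and 8.43 on the 4.5 h arrays, against 9.51, 9.04, 9.74 and 10.11 on the 1 h arrays. Gadd45a, a growth arrest gene of DNA damage, fell by 2.11 ± 0.31 on the log2 scale, and of 19 p53 targets and Gadd45 genes 5 were called higher and 3 lower (list median 0.33), against 2 and 2 as deposited.

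Glucose metabolism held some of the largest falls. G6pc, the catalytic subunit of glucose-6-phosphatase that releases glucose into the blood, read 6.81, 6.99, 6.17 and 7.90 on the 4.5 h arrays, against 11.52, 10.17, 10.77 and 11.29 on the 1 h arrays. The log2 difference was -3.97 ± 0.33 (adjusted p = 8.79e-09), a 15.7-fold fall, and the groups were separated by more than 2 log2 units. Control livers averaged 10.30 ± 0.53 (SD, n = 5). Ppargc1a, a coactivator that drives gluconeogenesis in fasting, read 4.91, 4.87, 4.22 and 5.52 on the 4.5 h arrays, against 7.21, 7.60, 7.53 and 6.98 on the 1 h arrays (log2 difference -2.45 ± 0.26). Pde4b, a phosphodiesterase that breaks down cyclic AMP, read 7.71, 7.12, 7.46 and 7.33 on the 4.5 h arrays, against 10.13, 10.17, 10.14 and 10.05 on the 1 h arrays (log2 difference -2.72 ± 0.25), and its 1 h arrays lay close together. Of 23 genes of gluconeogenesis and its cyclic AMP regulators 12 were called lower and 2 higher (Crem and Pcx), with a list median of -0.56, and 10 and 0 as deposited. Ppp1r3g, which targets protein phosphatase 1 to glycogen, read 5.05, 3.92, 4.0 and 4.66 on the 4.5 h arrays, against 8.30, 7.95, 7.80 and 6.83 on the 1 h arrays (9.92-fold lower), with 2 of 4 arrays at 4.5 h above the array median and a 7.92-fold fall with the low arrays set to it. Control livers averaged 6.33 ± 0.56 for Ppargc1a, 6.51 ± 0.37 for Pde4b and 3.89 ± 0.26 for Ppp1r3g (SD, n = 5). The control mean lay above the 4.5 h mean for Ppargc1a and below it for Pde4b and Ppp1r3g. Slc2a2, the glucose transporter of hepatocytes, fell by 1.10 ± 0.14 on the log2 scale. Pfkl, the liver phosphofructokinase of glycolysis, rose by 0.92 ± 0.16, a call lost with the signals as deposited (adjusted p = 0.0869). In the glycolysis and glycogen list 8 of 17 were called lower and 1 higher (list median -0.32), and with the signals as deposited 3 and 0. In the growth hormone and IGF list 9 of 17 were called lower and 1 higher (list median -0.37; 6 and 0 as deposited), led by Cish, a feedback inhibitor of growth hormone signalling (log2 difference -1.57 ± 0.39), and Igfals, the IGF carrier subunit (-1.34 ± 0.19).

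Lipid synthesis genes moved in the same direction. Of 21 de novo lipogenesis genes 13 were called lower and 0 higher, with a list median of -0.65. Srebf1, the transcription factor that turns on fatty acid synthesis, read 8.14, 7.93, 8.07 and 8.43 on the 4.5 h arrays, against 11.26, 10.23, 9.81 and 10.16 on the 1 h arrays (log2 difference -2.22 ± 0.29, adjusted p = 6.08e-06). Fasn, fatty acid synthase, read 9.04, 8.96, 9.15 and 7.83 on the 4.5 h arrays, against 11.39, 10.09, 10.59 and 11.35 on the 1 h arrays (log2 difference -2.11 ± 0.31). The Srebf1 and Fasn arrays at 4.5 h all lay below those at 1 h, although 4.5 h array 4 read lower than its group for Fasn. Lpin1 and Lpin2, phosphatidate phosphatases, fell, with log2 differences of -2.05 ± 0.43 and -2.23 ± 0.22. Cholesterol synthesis and uptake gave 8 lower and 0 higher of 21 (list median -0.35), with Insig1, a sterol-regulated brake on SREBP processing, at -1.49 ± 0.20 and Stard4, a sterol carrier, at -1.41 ± 0.24. Fatty acid oxidation gave 6 lower and 0 higher of 27 (list median -0.18), and 2 lower as deposited. The share lower was 22.2%, near the 18.2% of all genes tested. Its strongest call was Plin5, a lipid droplet protein, which read 7.65, 7.77, 7.75 and 7.31 on the 4.5 h arrays, against 10.11, 10.12, 9.90 and 9.91 on the 1 h arrays (log2 difference -2.39 ± 0.27, adjusted p = 8.22e-07). Ppargc1b, a coactivator of SREBP and mitochondrial genes, read 5.26, 5.31, 5.57 and 5.01 on the 4.5 h arrays, against 8.39, 8.62, 8.48 and 8.61 on the 1 h arrays (9.44-fold lower). Of 21 apolipoproteins and lipases 1 was called higher, the cholesterol exporter Abca1 (1.27 ± 0.26), and 4 lower (list median -0.11), against 1 and 0 as deposited.

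**Figure D3:**
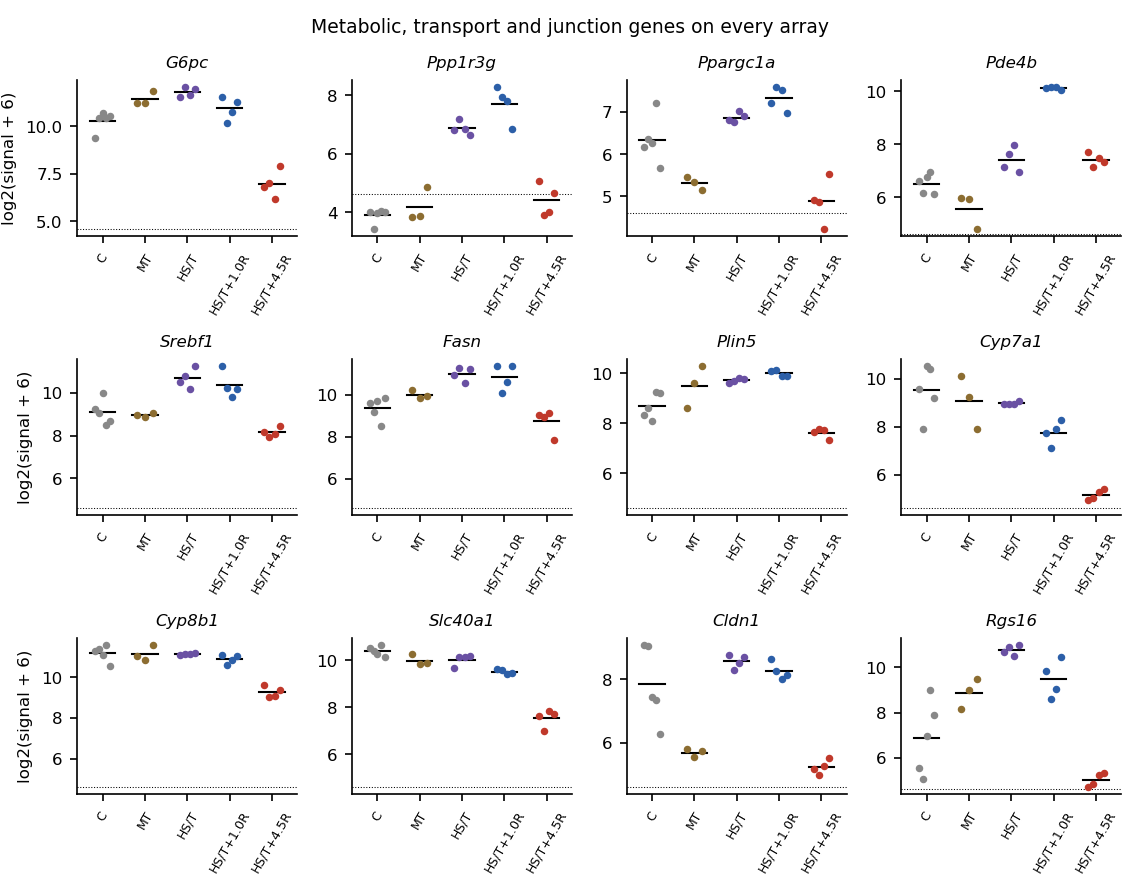
Log2 signal of 12 metabolic, transport and junction genes on each of the 20 arrays, in the order control (C), minor trauma (MT), shock with severe trauma (HS/T), 1 h (HS/T+1.0R) and 4.5 h (HS/T+4.5R) of resuscitation; points are arrays, bars are group means and the dotted line is the array median where it falls in range. In all 12 panels the 4.5 h arrays lie below the 1 h arrays, by 1.61 to 4.47 log2 units between the group means.

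Bile acid synthesis, transport and drug metabolism were lower in many members. Cyp7a1, the rate-limiting enzyme of bile acid synthesis, read 4.94, 5.02, 5.26 and 5.41 on the 4.5 h arrays, against 7.73, 7.11, 7.90 and 8.26 on the 1 h arrays (log2 difference -2.59 ± 0.44, adjusted p = 0.000135), with control livers at 9.53 ± 1.07 (SD, n = 5). Cyp8b1, which sets the balance towards cholic acid, read 9.63, 9.02, 9.10 and 9.38 on the 4.5 h arrays, against 11.09, 10.60, 10.84 and 11.03 on the 1 h arrays (log2 difference -1.61 ± 0.19). No 4.5 h array of either gene reached the lowest 1 h array. Of 17 bile acid genes 11 were called lower and 2 higher (Baat and Hnf4a), with a list median of -0.46, and 8 and 0 as deposited. Klb, the coreceptor for the intestinal hormone FGF15, fell by 1.55 ± 0.20 on the log2 scale, and Nr1h4, the bile acid receptor FXR, fell by 0.86 ± 0.16. Hepatobiliary transporters gave 12 lower and 0 higher of 20 (list median -0.64; 7 lower as deposited), among them Abcb11, the bile salt export pump (-0.89 ± 0.21), and Abcg8, a sterol exporter (-1.09 ± 0.18). Of 30 drug-metabolizing cytochromes P450 14 were called lower and 0 higher (list median -0.29; 5 lower as deposited). Cyp2u1 read 3.16, 3.85, 3.21 and 4.24 on the 4.5 h arrays, against 6.54, 6.23, 6.20 and 6.43 on the 1 h arrays, at or under the array median on every 4.5 h array, so it fell at least 3.36-fold. Nr1i3, the xenobiotic receptor CAR, fell by 1.34 ± 0.30 on the log2 scale, and Ugt2b35, a glucuronosyltransferase, read 9.31, 9.24, 9.40 and 9.54 on the 4.5 h arrays, against 11.10, 10.82, 10.76 and 10.95 on the 1 h arrays (log2 difference -1.53 ± 0.13). Among 36 xenobiotic receptors and conjugation enzymes 21 were called lower and 2 higher (list median -0.40; 8 lower and 1 higher as deposited). Nnmt, which methylates nicotinamide, was 1 of the 2 higher (1.18 ± 0.19).

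Breakdown of amino acids followed the same direction, with 21 of 32 genes called lower and 1 higher (Kmo) and a list median of -0.48, and 16 lower and 0 higher as deposited. Kynu and Afmid of the tryptophan pathway fell, with log2 differences of -1.37 ± 0.18 and -1.27 ± 0.15, and Hal, which opens histidine breakdown, fell by 1.29 ± 0.16. Ddc, which makes dopamine and serotonin from their amino acid precursors, read 6.78, 5.93, 5.85 and 7.07 on the 4.5 h arrays, against 10.12, 9.46, 10.23 and 9.95 on the 1 h arrays (11.6-fold lower, adjusted p = 3.33e-06). Urea cycle and ammonia handling gave 2 higher and 4 lower of 14 (list median -0.09), with 1 of each as deposited. Car5a, the mitochondrial carbonic anhydrase that feeds bicarbonate to the cycle, fell by 1.57 ± 0.21 on the log2 scale. Ass1 rose by 1.56 ± 0.42, but its 1 h array 1 read 7.16, inside the 4.5 h range of 6.12 to 7.76. It was read by 1 kept probe set, with means of 7.09 at 4.5 h and 5.53 at 1 h against an array median of 4.60. Its limma call was lost within the unspiked set (0.90, adjusted p = 0.442).

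Metal and redox genes showed opposite movements within a list. Slc40a1, the iron exporter ferroportin, read 7.61, 6.97, 7.84 and 7.72 on the 4.5 h arrays, against 9.62, 9.57, 9.41 and 9.43 on the 1 h arrays (log2 difference -1.97 ± 0.17, adjusted p = 1.42e-08), and Hjv, the hemojuvelin coreceptor that drives hepcidin, fell by 2.52 ± 0.24 on the log2 scale. Slc11a2, an iron importer, rose by 1.02 ± 0.20, and of 16 iron genes 1 was called higher and 4 lower (list median -0.18), 31.2% beside 33.1% of all genes tested. Slc40a1 is also among the Kupffer cell markers, whose sums were lower at 4.5 h, and the part of those cells was not tested. The zinc importers Slc39a10 and Slc39a14 rose by 1.99 ± 0.19 and 1.11 ± 0.29, while Slc39a8, another importer, fell by 0.90 ± 0.11 on the log2 scale, and of 9 metallothioneins and zinc transporters 2 were called higher and 4 lower (2 and 1 as deposited). Of 21 NRF2 antioxidant genes 11 were called lower and 1 higher, with a list median of -0.45 and 7 lower as deposited. The single higher member was Keap1, the inhibitor of NRF2, which read 8.60, 8.61, 8.60 and 8.97 on the 4.5 h arrays, against 7.50, 7.56, 7.85 and 7.78 on the 1 h arrays, and the glutathione transferases Gsta2 and Gsta4 fell, with log2 differences of -1.50 ± 0.26 and -1.17 ± 0.18.

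Endoplasmic reticulum chaperones and oxygen-responsive genes were called higher more often than lower. Of 25 endoplasmic reticulum chaperone and unfolded protein response genes 10 were called higher and 2 lower (list median 0.43; 4 higher as deposited). Creld2, a chaperone-like secreted factor, read 10.47, 11.14, 11.21 and 10.53 on the 4.5 h arrays, against 8.90, 8.75, 9.0 and 8.58 on the 1 h arrays (4.09-fold higher, adjusted p = 2.41e-05), with 4.5 h arrays 2 and 3 above arrays 1 and 4. Dnajb9, a cochaperone of BiP, rose by 1.50 ± 0.27, and Manf, a stress-secreted factor of the same compartment, by 1.06 ± 0.19. Of 26 hypoxia-inducible genes 9 were called higher and 0 lower (list median 0.34), 5 as deposited, and after median centring 5 were higher and 1 lower. Slc2a1, the glucose transporter induced by low oxygen, read 8.93, 8.44, 8.61 and 9.42 on the 4.5 h arrays, against 7.44, 7.42, 7.37 and 7.43 on the 1 h arrays, and Egln3, an oxygen sensor that marks HIF for destruction, rose by 1.35 ± 0.20. Integrated stress response targets split into 5 higher and 4 lower of 23 (1 and 4 as deposited). The largest change in that list was in Ddit4, which rose by 1.61 ± 0.34 and was also in the hypoxia list. Atf4 itself was among the members called higher. Trib3 and Ppp1r15a, both regulators downstream of ATF4, fell, with log2 differences of -1.36 ± 0.25 and -1.35 ± 0.19. Heat shock proteins gave 5 higher and 2 lower of 21 (1 and 1 as deposited), and their 33.3% called was near the 33.1% of all genes tested. The medians of these last lists were 0.03 and 0.08, and both turned negative with the signals as deposited (-0.04 and -0.13).

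More ribosome production genes were called higher than lower. Of 49 nucleolar ribosome biogenesis factors 20 were called higher and 0 lower (list median 0.39). As deposited 7 were higher, and after median centring 14 were higher and 1 lower. Heatr1, which supports ribosomal RNA transcription, read 9.93, 9.79, 10.09 and 9.99 on the 4.5 h arrays, against 7.91, 8.34, 8.26 and 8.20 on the 1 h arrays (3.42-fold higher, adjusted p = 6.69e-08), a separation of more than 1 log2 unit between the groups. That value is of its brightest probe set, and the mean of all its kept probe sets gave 0.46 (adjusted p = 0.0532). Nop2, a ribosomal RNA methyltransferase, rose by 1.11 ± 0.20. Among 36 translation initiation factors and tRNA synthetases 15 were called higher and 0 lower (list median 0.31), against 3 higher as deposited, and 6 higher and 2 lower after centring. Rars and Wars, the arginyl- and tryptophanyl-tRNA synthetases, rose by 1.12 ± 0.12 and 1.29 ± 0.20, and Wars is also induced by interferon gamma. Of 42 cytosolic ribosomal proteins 0 were called by limma and 1 had an unadjusted p under 0.05. Arrays did not overlap for 5 higher and 2 lower members, beside 34.6% of all genes tested. The list median of 0.04 turned to -0.12 as deposited and to -0.09 after centring. Among 28 constitutive proteasome subunits 5 were called higher, led by Psmd7 (0.58 ± 0.13), and 0 as deposited or after centring. The mean of all kept probe sets of Psmd7 gave -0.06 (adjusted p = 0.861). The respiratory chain and ATP synthase gave 6 lower of 57 (list median -0.12), each by under 2-fold, and 0 as deposited. Cox7c and Sdhc of these were not called when certain single arrays were left out (highest adjusted p 0.16 and 0.136).

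**Figure D4:**
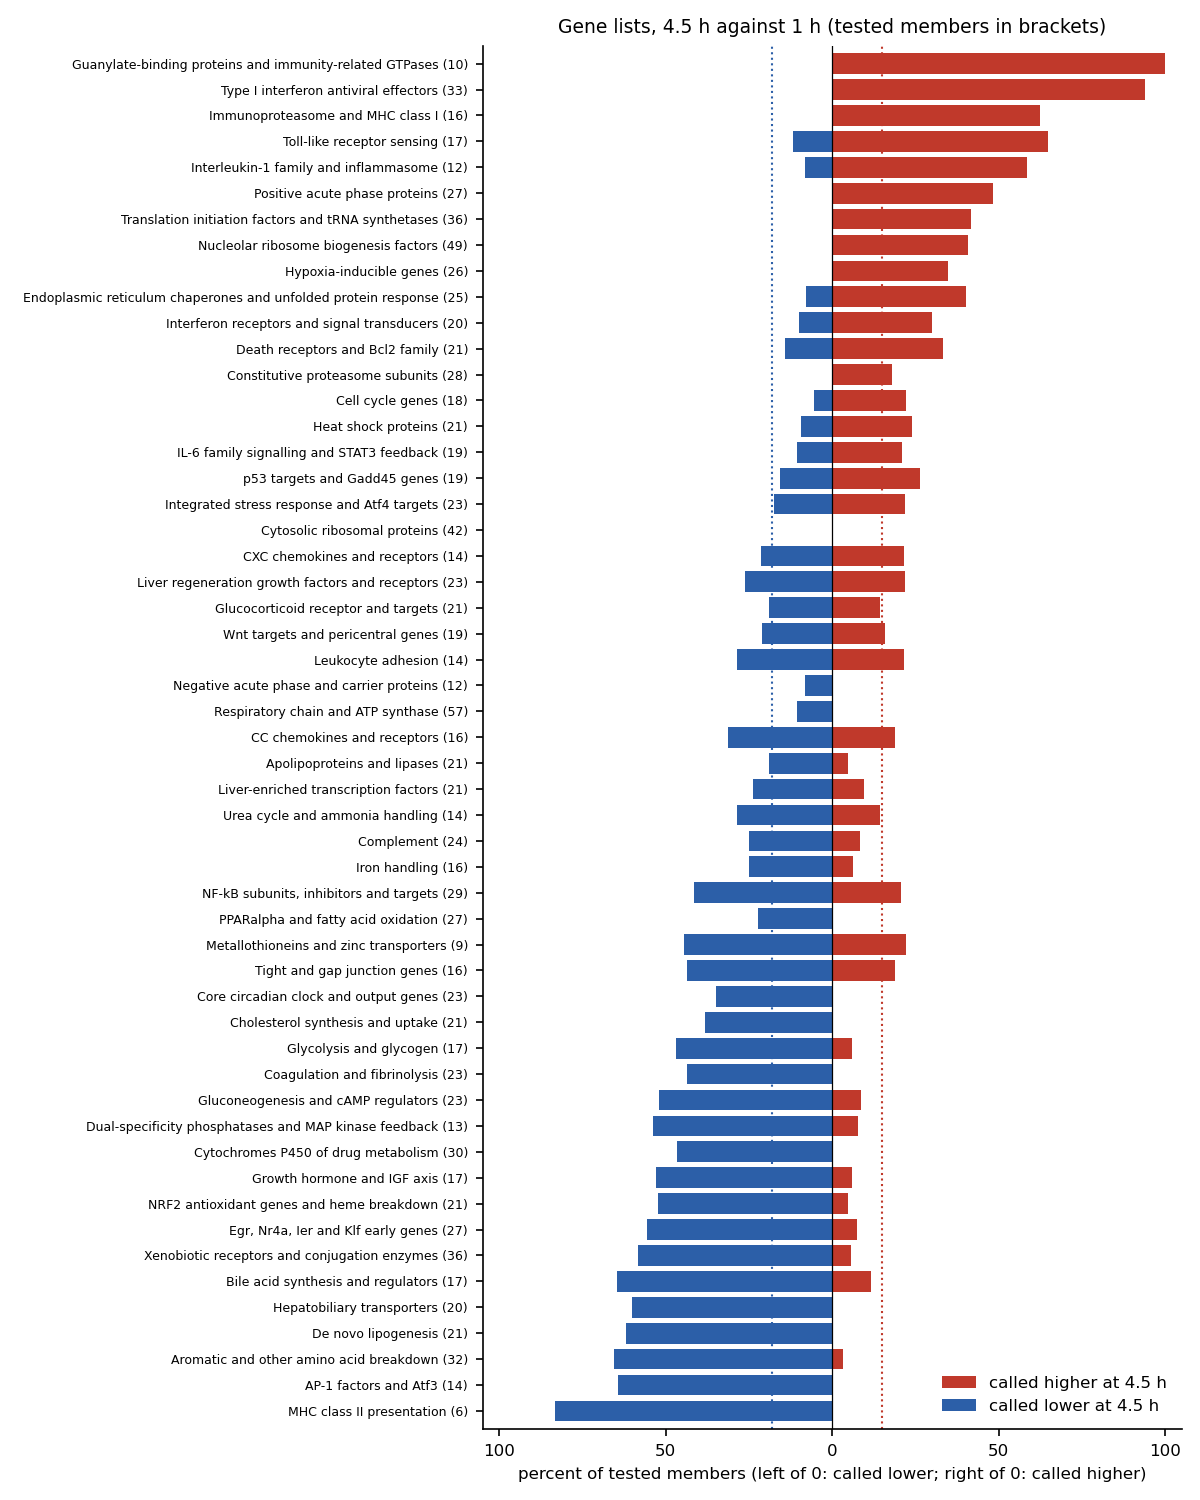
Percent of measured members called higher (red, right of 0) and lower (blue, left of 0) at 4.5 h against 1 h in 53 gene lists, ordered by the difference of the 2 shares, with the number of tested members in brackets. Dotted lines mark the shares of all genes tested, 14.9% higher and 18.2% lower. Guanylate-binding proteins (10 of 10 higher) stand at the top and MHC class II genes (5 of 6 lower) at the bottom.

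Junction genes held some large falls, and most growth and patterning lists had calls near the share of all genes tested. Cldn1, a claudin that seals bile canaliculi, read 5.16, 4.99, 5.27 and 5.52 on the 4.5 h arrays, against 8.64, 8.25, 8.01 and 8.12 on the 1 h arrays (8.12-fold lower, adjusted p = 8.11e-06). Ocln, the tight junction protein occludin, read 5.21, 5.31, 5.48 and 5.57 on the 4.5 h arrays, against 7.17, 7.18, 7.15 and 6.95 on the 1 h arrays (log2 difference -1.72 ± 0.27), and the junction plaque proteins Tjp3 and Cgn fell, with log2 differences of -1.84 ± 0.31 and -1.55 ± 0.22. Tjp3 had 1 of 4 arrays at 4.5 h above the array median, and with the low arrays set to it the difference was -1.32. Of 16 junction genes 7 were called lower and 3 higher (F11r, Tjp1 and Gjb2), with a list median of -0.47 and 0 higher as deposited. In the clock list 8 of 23 were called lower and 0 higher (list median -0.06). Arntl, the clock activator BMAL1, read 4.58, 5.28, 4.23 and 5.31 on the 4.5 h arrays, against 6.75, 6.07, 6.95 and 6.79 on the 1 h arrays (log2 difference -1.79 ± 0.52, adjusted p = 0.0113), and Wee1, a cell cycle kinase driven by the clock, fell by 1.68 ± 0.41 on the log2 scale. Time of day was not given and cannot be told apart from the group. Nrg4, an epidermal growth factor family ligand, read 9.67, 9.53, 9.70 and 9.65 on the 4.5 h arrays, against 5.58, 6.67, 6.52 and 6.50 on the 1 h arrays (9.99-fold higher). Hbegf and Myc, early growth factor and proliferation genes, fell, with log2 differences of -2.02 ± 0.28 and -1.63 ± 0.32. Of 23 regeneration genes 5 were called higher and 6 lower, and of 18 cell cycle genes 4 and 1 (1 and 0 as deposited). Wnt targets and pericentral genes gave 3 higher and 4 lower of 19 (1 and 2 as deposited), liver-enriched transcription factors 2 and 5 of 21 (0 and 3 as deposited), and the glucocorticoid receptor with its targets 3 and 4 of 21 (2 and 2 as deposited). The shares called were 27.8% for cell cycle genes, 36.8% for Wnt targets and 33.3% for each of the last 2 lists, near the 33.1% of all genes tested, and 47.8% for regeneration genes. The medians of these 5 lists lay between -0.02 and 0.11, and each turned to, or stayed at, -0.14 to -0.04 with the signals as deposited.

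Death pathway genes rose in 7 of 21 measured members and fell in 3, with a list median of 0.10. Mlkl, the executioner of necroptosis, read 8.44, 8.79, 8.53 and 8.70 on the 4.5 h arrays, against 5.66, 5.95, 4.54 and 5.82 on the 1 h arrays (8.70-fold higher, adjusted p = 8.04e-09). Tnfsf10, the death ligand TRAIL, read 7.0, 7.66, 7.58 and 7.82 on the 4.5 h arrays, against 4.82, 4.44, 4.93 and 4.93 on the 1 h arrays (6.66-fold higher). Fas, a death receptor and p53 target, rose by 1.44 ± 0.24, and no array of these 3 genes overlapped between the groups. Bik, a BH3-only protein of the Bcl2 family, fell by 1.55 ± 0.29 on the log2 scale. It had 1 of 4 arrays at 4.5 h above the array median, and with the low arrays set to it the difference was -0.90.

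Among the largest falls outside these pathways, Rgs16, which speeds the switching off of G proteins, read 4.70, 4.84, 5.22 and 5.31 on the 4.5 h arrays, against 9.85, 8.62, 9.04 and 10.45 on the 1 h arrays. It was 22.2-fold lower (log2 difference -4.47 ± 0.59, adjusted p = 6.51e-06), and the 4.5 h arrays lay close to the array median. Sucnr1, the receptor for succinate, read 5.16, 4.89, 4.52 and 5.29 on the 4.5 h arrays, against 9.03, 7.54, 7.86 and 7.84 on the 1 h arrays (8.60-fold lower), and the tubulin gene Tubb2a read 7.04, 7.17, 6.87 and 8.74 on the 4.5 h arrays, against 11.26, 10.34, 10.82 and 10.67 on the 1 h arrays (9.95-fold lower). Tubb2a was the less even of the pair, with 4.5 h array 4 at 8.74 and the others well below it. Fam20a, a pseudokinase of the secretory pathway, was 9.13-fold lower, Rnf144b, an E3 ubiquitin ligase, 8.42-fold, Keg1 7.30-fold, Tcim 6.92-fold and Coq8a, which serves coenzyme Q synthesis, 6.67-fold. Where a gene lay at or under the array median on every array of 1 group, the fold is a bound against that median. Where only some arrays of a group lay above it, the fold uses all 4 values, as for Fam20a, Arntl and Hbegf with 2 of 4 arrays at 4.5 h above it. Clec2h read 2.91, 3.45, 3.13 and 3.89 on the 4.5 h arrays, against 7.39, 7.15, 6.70 and 6.66 on the 1 h arrays and was thus lower by at least 5.18-fold. On the same footing Tmie was lower by at least 3.65-fold, Tcf7l1, a transcription factor of the Wnt pathway, by at least 3.52-fold, the serine protease gene Prss8 by at least 3.22-fold and Spata2l by at least 3.06-fold. In the other direction Ifit1bl2 and Ifit1bl1, relatives of Ifit1, were at least 5.0-fold and 3.38-fold higher, Oas1c at least 3.0-fold, Fap, a serine protease of activated fibroblasts, at least 3.50-fold, and Sult1e1, the estrogen sulfotransferase, at least 3.84-fold.

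Markers of liver cell types moved in different directions. Of 17 sinusoidal endothelial markers 12 were called lower and 0 higher (list median -0.81), and their summed signal was 2338 to 2625 at 4.5 h and 3848 to 4566 at 1 h, with 3672 to 4811 in controls. Kdr, the VEGF receptor 2, read 5.55, 5.09, 4.16 and 5.08 on the 4.5 h arrays, against 7.49, 6.86, 7.03 and 7.13 on the 1 h arrays (log2 difference -2.16 ± 0.25, adjusted p = 1.19e-06), and Ptprb, the endothelial phosphatase VE-PTP, fell by 1.96 ± 0.14 on the log2 scale. Clec4g, a lectin of sinusoidal endothelium, read 7.92, 8.22, 7.74 and 8.20 on the 4.5 h arrays, against 9.72, 9.62, 9.70 and 9.35 on the 1 h arrays, with no overlap between the groups. Kupffer cell markers gave 9 lower and 1 higher of 12 (list median -1.03), and in controls their sums were 5957 to 7414. Cd163, the hemoglobin scavenger receptor, read 4.86, 5.12, 5.66 and 5.22 on the 4.5 h arrays, against 6.83, 7.31, 7.33 and 7.40 on the 1 h arrays (log2 difference -2.0 ± 0.21), and Vsig4, a complement receptor of resident macrophages, fell by 1.80 ± 0.18 on the log2 scale. Marco, a scavenger receptor, was the single higher member and read 7.33, 7.36, 8.43 and 7.50 on the 4.5 h arrays, against 5.66, 6.88, 6.13 and 5.63 on the 1 h arrays. Of 15 stellate cell and fibroblast markers 6 were called lower and 1 higher (list median -0.37; 2 and 1 as deposited), with summed signals of 3965 to 4081 at 4.5 h and 4215 to 5295 at 1 h. Lrat, which stores vitamin A in stellate cells, fell by 1.72 ± 0.30 on the log2 scale.

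Monocyte markers rose, with 7 of 9 called higher and 1 lower, a list median of 0.76 and summed signals of 1769 to 2372 at 4.5 h and 770 to 938 at 1 h. As deposited 4 were called higher and 1 lower. Chil3, a chitinase-like protein of inflammatory monocytes, read 7.50, 7.52, 7.34 and 8.83 on the 4.5 h arrays, against 4.22, 4.61, 4.49 and 3.71 on the 1 h arrays (11.7-fold higher, adjusted p = 1.09e-07). It had 1 of 4 arrays at 1 h above the array median, and with the low arrays set to it the rise was 9.14-fold. F13a1, the clotting factor XIII chain carried by monocytes, was at least 4.11-fold higher. The single lower member was Nr4a1, which is also an immediate early gene. Ms4a4c rose by 2.68 ± 0.20, and it is known to be interferon-induced as well, so it does not stand for monocytes alone. Whether the other members called higher respond to interferon in these livers was not tested. Of 12 neutrophil markers 0 were called by limma and 3 had an unadjusted p under 0.05, with a list median of 0.41 and summed signals of 5014 to 5675 at 4.5 h, 3248 to 5127 at 1 h and 172 to 604 in controls. The closest to a call was Fpr2, a formyl peptide receptor, at 0.94 ± 0.36 (adjusted p = 0.0527). Arrays did not overlap for 4 higher and 1 lower of the neutrophil markers, beside 34.6% of all genes tested. Scaled to the 2% trimmed mean, 1 of these markers was called higher. Cxcr2, Camp and Ltf of that list did not pass the filter on low signals. Of 7 T and NK cell markers 2 were called higher, the granzymes Gzma and Gzmb (1.19 ± 0.34 and 1.41 ± 0.41, Gzmb not with a pseudocount of 1, adjusted p = 0.0709), while Cd3e, Cd3g, Cd2, Cd5, Cd4, Ncr1 and Xcl1 did not pass that filter. Dendritic cell markers gave 1 lower in 5 and cholangiocyte markers 1 higher in 4, and neither gave a call as deposited. By limma B cell markers gave 0 calls in 6 (0 at an unadjusted p under 0.05), and erythroid and platelet markers 0 in 5 (1 at an unadjusted p under 0.05). Of 12 hepatocyte markers 1 was called, Hnf4a at 0.45 ± 0.11, a call lost with the signals as deposited (0.28, adjusted p = 0.55) and after median centring (0.31, adjusted p = 0.0986). The part of shifts in cell content in the lists above was not tested.

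**Figure D5:**
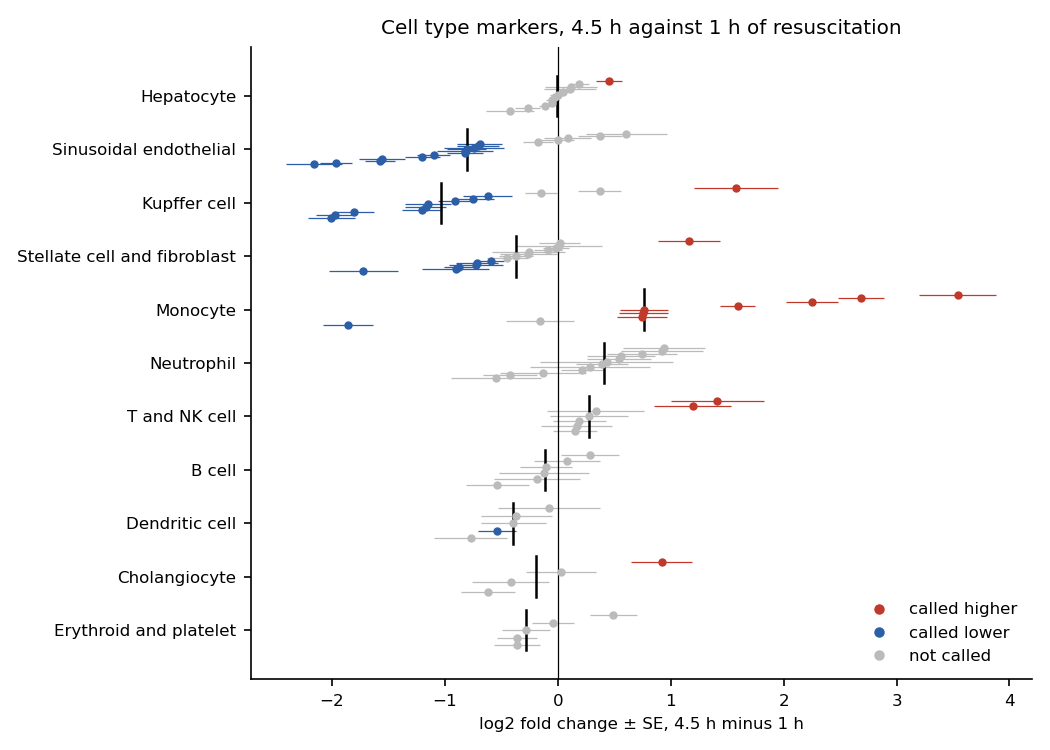
Log2 difference ± SE, 4.5 h minus 1 h, of the measured markers of 11 liver and blood cell types; each point is a gene, red called higher, blue called lower and grey not called, and the black bar is the list median. Endothelial and Kupffer cell medians lie at -0.81 and -1.03, the monocyte median at 0.76 and the hepatocyte median at -0.01.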

How the data were processed

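The deposited values are signal intensities of 1 number per probe set and array on a linear scale, made with MAS5 per the submitters' processing notes. No version of it is named, and array medians and means differed, so the intensity values had not been scaled to each other. The study's other platform was not analysed here.

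Control probe sets were removed, and log2(intensity + 6) was quantile normalized over the 20 arrays. Of probe sets, 34945 carried 1 gene symbol in the platform annotation, 932 several and 9160 none, and only the first were used. Probe sets above the median of their own array on at least 3 arrays stayed in (27230), and the brightest kept probe set stood for its gene, which left 12822 of 18161 genes. limma 3.58.1 in R 4.3.3 fitted 5 group means with an intensity trend (15 residual degrees of freedom), and p-values were Benjamini-Hochberg adjusted over all genes tested, and a gene was called at 0.05 or below. A group whose arrays all lay at or under the array median gave only a bound. On simulated data 89 of 100 2-fold and 95 of 100 4-fold changes were recovered, with 7 of 12622 unchanged genes called. The simulated arrays used the gene means and residual spreads of the normalized data, with few genes changed. Normalization and filter were not repeated on them, so these counts do not show how the scaling affects the calls.

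Named genes were the 14 largest rises and falls measured in both groups, the 6 largest by the bound, and list members. The largest by either measure were taken among called genes whose 4.5 h and 1 h arrays did not overlap, without clone or locus names. Their lack of overlap was thus set by this choice and is no separate result. Up to 4 called members were named from each of 53 lists and 11 marker lists (2 with the smallest p where none was called). A gene outside that rule that the text names was chosen after its values were seen. The members and lists were chosen with earlier results of these data known. Promoters came from RefSeq (GRCm38.p6). Figures were drawn with matplotlib 3.10.9. The alternatives tried were other scalings, pseudocounts, filters, probe set rules, blocks, tests and sample sets. The number of arrays limits the precision, and 4 against 4 arrays cannot give a two-sided exact p under 0.02857.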

Additional observations from a re-analysis of the deposited data

Results flagged for a closer look

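Over the named genes, 496 groups of 4 arrays were examined for 1 array standing apart, and 35 (7.06%) had one, while chance gives about 1 in 20. Of these, 18 were at 4.5 h and 17 at 1 h. The array that stood apart was 1 h array 1 in 11, 4.5 h array 4 in 7, 4.5 h array 3 in 6, 4.5 h array 1 and 1 h array 4 in 4 each, 1 h array 2 in 2 and 4.5 h array 2 in 1. All values below are log2 signals.

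At 4.5 h, array 4 stood apart for 7 genes. It was low for A2m at 8.40, where the others lay between 10.35 and 10.63, and for Saa3 at 12.25. It was high for the monocyte gene Chil3 at 8.83, for Keap1 at 8.97, for the tubulin gene Tubb2a at 8.74 and for Cyp26a1, which clears retinoic acid, at 8.74, and low for Fasn at 7.83. Array 3 was high for Afmid at 8.16, the glutathione transferase Gstm4 at 8.18, the phosphatase Dusp5 at 3.95, Marco at 8.43, Selp at 9.18 and Tap1 at 9.60. Dusp5 lay under the array median of 4.60 on every 4.5 h array, so its spread there is among dim signals. Array 1 was low for the interferon-induced Ifit3 at 12.01 and Mx1 at 8.38, and for Il6 at 5.39 and Jun at 8.72. Array 2 was low for Pecam1, an endothelial adhesion molecule, at 5.02. Of these 18 genes Cyp26a1 and Jun had overlapping arrays at 4.5 h and 1 h, with array 4 inside the 1 h range for Cyp26a1, and the others did not overlap.

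At 1 h, array 1 was low for genes called higher at 4.5 h, namely Lcn2 at 9.35, Il1r1 at 7.73, Il1rn at 7.02, Nrg4 at 5.58, Sult1e1 at 2.78 and the translation factor Eif6 at 9.23. It was also low for the macrophage genes C1qc at 8.23 and Cd163 at 6.83. The same array was high for Ass1 at 7.16, where the others lay between 4.94 and 5.05, for Gclc, a chain of the enzyme that opens glutathione synthesis, at 11.07, and for Pecam1 at 6.31. Array 4 was high for Aen at 6.38, F7 at 9.83 and Hnf4a at 11.53 and low for Ocln at 6.94. Array 2 was low for Kynu at 9.64 and high for the ribosomal protein gene Rps20 at 11.91. Sult1e1 lay under the array median of 4.60 on every 1 h array, so its spread there is among dim signals.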

How the results depend on the processing

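Of the 240 named genes called, 96 higher and 144 lower, 33 lost the call with the signals as deposited, 7 after median centring, 14 with the mean of all kept probe sets, 64 of the 235 tested within the spiked set, 46 of 231 within the unspiked set, and at most 4 with another pseudocount, filter or test or with only the 8 arrays. Among called genes 2 changed sign: Phgdh gave 0.20 within the spiked set (adjusted p = 0.898) and Psmd7 gave -0.06 with the mean of all kept probe sets (adjusted p = 0.861). Rpsa, not called, gave -0.06 with the signals as deposited (adjusted p = 0.92) and -0.03 after median centring (adjusted p = 0.907). The count of 4245 called genes became 1729 as deposited (573 higher, 1156 lower), 1445 within the spiked set (677 and 768) and 2265 within the unspiked set (1019 and 1246), where fewer arrays entered. Median centring called 1242 genes higher, and a pseudocount of 18 left 453 lower by at least 2-fold. Leaving out each of the 8 compared arrays in turn gave 3460 to 3920 called genes, lowest without 1 h array 1. Of the other arrays, control array 5 and minor trauma array 3 were left out, with 4347 and 4793 called. Control array 5 correlated best with minor trauma array 2 (r = 0.983, against a median of 0.964 with the other controls). The control means given with n = 5 include it. Under at least 1 of the settings that left out an array, 25 named genes lost their call. Apart from the constructions named (fewer arrays, a larger pseudocount), the cause was not tested.

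Replicate numbers of the titles were tried as a block over the 8 arrays, which called 4308 genes (2024 higher, 2284 lower), and 8 named genes lost their call. Same-numbered arrays had correlations of -0.038 to 0.0261 of their deviations from the group means, and only array 2 of 4 correlated best with its own number. The correlations gave no sign of pairing by number. They cannot show whether same-numbered arrays were handled together. Signal near the array median limits dim genes: 114 of the higher and 164 of the lower calls had a level in 1 group only.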

Other observations

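Gene families that share a symbol stem were counted as well, for the 81 stems with at least 15 genes tested. The stems described here were chosen after their values were seen. Ddx RNA helicases were called higher in 16 of 32 and lower in 1, with a median log2 difference of 0.49. Beside the interferon-induced Ddx60 (3.98) and the RNA sensor Ddx58 (2.28), they included Ddx21 (1.07) and Ddx10 (0.88), which serve the nucleolus. Rbm RNA-binding proteins gave 14 higher and 1 lower of 30 (median 0.40), led by Rbm43 (2.78). Subunits of Mediator, which links transcription factors to RNA polymerase II, gave 12 higher and 3 lower of 30, and Integrator subunits, which cleave nascent RNA, gave 7 higher and 0 lower of 15. Zfp zinc finger genes were called higher in 54 of 253 and lower in 22, against 14.9% and 18.2% of all genes tested.

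Trim genes gave 15 higher and 2 lower of 41, and the largest rises were in Trim30d (4.0), Trim34a (3.81), Trim30a (3.75) and Trim12a (3.59), which lie among relatives of similar sequence. Nuclear receptors (Nr) gave 1 higher and 9 lower of 19 with a median of -0.59, among them Nr2f6 (-1.32) and Nr6a1 (-1.22). Membrane and metabolic families had more lower than higher calls: Slc solute carriers 35 higher and 62 lower of 247, Tmem genes 18 and 40 of 165, and Aldh aldehyde dehydrogenases 0 and 8 of 17. Over all genes tested lower calls also outnumbered higher calls (18.2% and 14.9%). The lower shares were 25.1% for Slc, 24.2% for Tmem and 47.1% for Aldh genes. For Slc genes the higher share of 14.2% was near that of all genes tested. Mitochondrial ribosomal proteins had few calls, 1 higher and 4 lower of 47 Mrpl genes and 0 higher and 2 lower of 29 Mrps genes.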
